A study of Mus musculus with 6 samples.

Results

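The genes described here are the 5 mouse paralogs of alpha-1 antitrypsin, Serpina1a, Serpina1b, Serpina1c, Serpina1d and Serpina1e, in RNA from biliary epithelial cells, which form the lining of the bile ducts within the liver. They were chosen by symbol, as 5 of the 25302 rows of the deposited table, with their difference between the groups already known. Their levels and differences are therefore given as a description without a test. The samples were 3 Control and 3 Sox9cKO libraries of biliary epithelial cells from mouse liver. Both genotypes carried Sox9fl/fl, alleles in which loxP sites allow the gene of the transcription factor Sox9 to be removed, and the Sox9cKO genotype (Sox9fl/fl:AlbCre+/-) carried in addition AlbCre, a Cre recombinase driven by the albumin promoter. The labels give no age, sex or strain, and do not say whether cells of several animals were pooled in a library. Where nothing says that samples came from separate animals, p-values measure only the spread between these samples.

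Alpha-1 antitrypsin is a serpin, a suicide inhibitor of serine proteases: the protease cleaves an exposed reactive centre loop, and the complex that forms traps it. Hepatocytes secrete the protein into plasma, where its main target is neutrophil elastase, and its gene responds to interleukin-6 type cytokines in the acute phase. Humans have a single gene of this kind, whereas in the mouse the gene was duplicated into a cluster of near-identical copies whose number differs between strains. The copies differ most in the reactive centre loop, which serpins encode near the end of the coding sequence.

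Because reads from such copies are hard to tell apart, the sequences come first. In GENCODE M21 on GRCm38, all 5 genes lie on the minus strand of chromosome 12: Serpina1b at 103728156 to 103830373, Serpina1d at 103763594 to 103773592, Serpina1a at 103853589 to 103863562, Serpina1c at 103894926 to 103904887 and Serpina1e at 103946931 to 103958975. The annotated range of Serpina1b contains that of Serpina1d, so these are overlapping genes on the same strand. The submitters' processing notes name GRCm39, and no coordinates were converted. Each gene had a transcript of 5 exons with a coding sequence of 1242 bases, and 93.1% of these bases were identical in all 5 paralogs. Serpina1a and Serpina1c were the closest pair, with 19 differing bases (98.5% identity), and the other 9 pairs differed at 37 to 46 bases.

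The stretch in which the coding sequences differ most is shown because it tells the paralogs apart. It runs from base 1101 to base 1160 of the coding sequence, near its end, and 70% of its bases are the same in all 5, against a median of 93.3% over all windows of 60 bases. Capitals mark the bases that are not the same in all 5 paralogs.
Serpina1a: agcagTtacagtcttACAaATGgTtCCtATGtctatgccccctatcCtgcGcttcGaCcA
Serpina1b: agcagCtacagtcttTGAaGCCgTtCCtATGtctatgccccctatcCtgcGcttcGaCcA
Serpina1c: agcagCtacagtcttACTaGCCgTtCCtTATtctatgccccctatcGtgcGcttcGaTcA
Serpina1d: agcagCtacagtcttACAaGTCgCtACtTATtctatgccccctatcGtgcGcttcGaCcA
Serpina1e: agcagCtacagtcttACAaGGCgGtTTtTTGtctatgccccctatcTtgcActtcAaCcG

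The opposite case is the longest run that is identical in all 5, with 226 bases, from base 337 to base 562 of the coding sequence. A read within it has no single origin, and shorter shared runs lie before it.
All 5 paralogs: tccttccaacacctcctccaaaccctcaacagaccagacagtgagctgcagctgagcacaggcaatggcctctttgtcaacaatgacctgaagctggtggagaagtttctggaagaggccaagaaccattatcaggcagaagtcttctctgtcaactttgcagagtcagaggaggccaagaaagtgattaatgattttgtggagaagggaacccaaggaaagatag

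**Figure D1:**
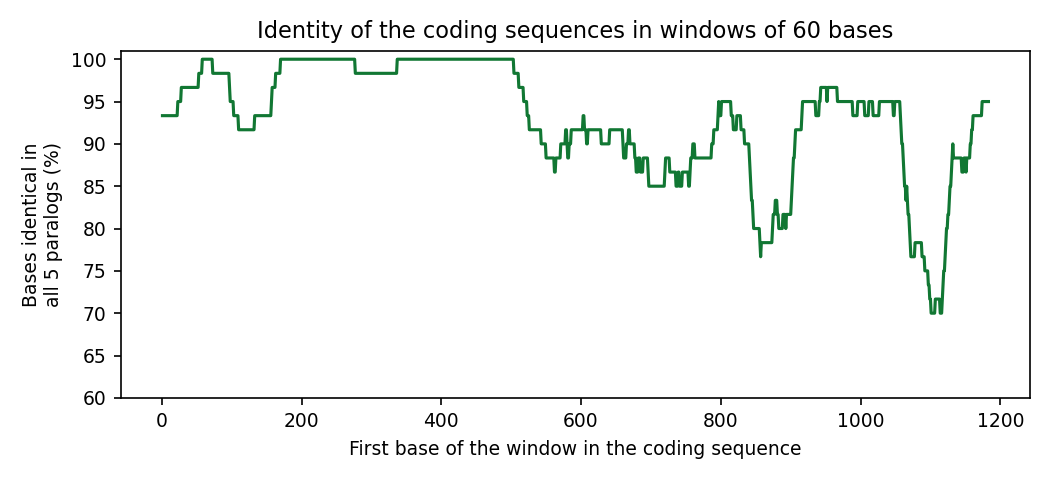
Share of bases that are identical in all 5 paralogs (y axis, %) in windows of 60 bases along the coding sequence of 1242 bases (x axis, first base of the window). The line is at 100% for windows that begin at bases 337 to 503, within the shared run, and is lowest, at 70%, in the window that begins at base 1101.

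How much of each transcript can be assigned depends on the read length, which is not given in the sources used here. Of all stretches of 100 bases in the transcript, 81.8% were found in no other GENCODE gene for Serpina1e, 73.6% for Serpina1b and 70.7% for Serpina1d. The share was 41.5% for Serpina1c and 39.0% for Serpina1a, and 58.0% of the stretches of each of these paralogs also occurred in the other one. At 150 bases the shares ranged from 49.5% for Serpina1a to 90.6% for Serpina1e, and at 50 bases from 19.1% to 62.1% for the same genes. Stretches of all 5 were also found in Gm8893, an unprocessed pseudogene that lies inside the annotated range of Serpina1b.

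The promoters are shown because the members differ in level while sharing this sequence. The windows come from RefSeq (GRCm38.p6), in which all 5 members had an entry, and each is on the minus strand of chromosome 12. Capitals mark GTTAAT, the motif by which the 5 windows were aligned.
Serpina1a, chr12:103863570-103863690: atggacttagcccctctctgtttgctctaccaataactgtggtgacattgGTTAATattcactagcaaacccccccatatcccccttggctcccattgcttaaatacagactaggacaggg
Serpina1b, chr12:103738140-103738265: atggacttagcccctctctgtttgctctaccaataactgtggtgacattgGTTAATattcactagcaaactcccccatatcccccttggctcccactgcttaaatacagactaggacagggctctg
Serpina1c, chr12:103904902-103905027: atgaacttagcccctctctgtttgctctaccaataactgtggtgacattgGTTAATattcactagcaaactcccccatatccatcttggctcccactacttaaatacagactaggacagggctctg
Serpina1d, chr12:103773584-103773699: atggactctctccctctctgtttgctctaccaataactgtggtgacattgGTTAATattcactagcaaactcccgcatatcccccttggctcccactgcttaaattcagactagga
Serpina1e, chr12:103956900-103957025: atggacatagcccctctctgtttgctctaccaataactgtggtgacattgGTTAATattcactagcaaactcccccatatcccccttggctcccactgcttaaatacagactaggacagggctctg

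Over the first 116 bases of these windows, pairs of paralogs differed at 1 to 10 bases. Serpina1b and Serpina1e, which differ at 1 base here, are among the most distant pairs in the coding sequence, with 46 differing bases. Motifs were searched on both strands of the whole RefSeq windows, which run from 250 bases before to 50 bases after each annotated start. GTTAAT was present in all 5 members and in 7.10% of the 32851 mouse promoter windows. TGTTTGC, a FOXA type motif, was in all 5 and in 5.07% of all windows. CCAAT was in all 5 and in 37.4% of all windows. The motif TTAAAT, which resembles a core promoter element, was in all 5 and in 13.2% of all windows; it began 22 to 33 bases after the annotated start in 4 members and at -29 in Serpina1e. On the other strand, 1 CCAAT match in each member overlaps the GTTAAT match by 1 base. The AP-1 motif TGACTCA was in 4 members (not in Serpina1e, whose window begins nearer to GTTAAT) and in 5.20% of all windows, and the C/EBP type motif TTGCNNAA was in 4 members (not in Serpina1c) and in 10.8%. It began at -161, -149 and -211 from the annotated start in Serpina1b, Serpina1d and Serpina1e, but at 24 after it in Serpina1a. The SOX core ACAAT was found in none of the 5 windows, against 31.0% of all windows. The 5 windows are copies of 1 another, so a motif at a shared position is not 5 independent matches.

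Sox9, the targeted gene, checks the labels. Its normalized read count, for which the reads of each library were scaled by a factor of its own, was 6211, 6043 and 6293 in the Control libraries and 3363, 3165 and 3340 in the Sox9cKO libraries, here and below in the order of their replicate numbers. The Sox9cKO mean was 0.532 times the Control mean (log2 difference -0.91, limma adjusted p 0.00501). The libraries held between 11883496 and 16191990 reads assigned to genes. All 17 biliary markers were in the table, and their summed level was 113061 to 154737 in Control and 101383 to 131119 in Sox9cKO. The 7 endothelial markers summed to between 1347 and 32135 over the samples, high in Control replicate 2 and Sox9cKO replicates 1 and 2 and low in both samples numbered 3, so the libraries also hold endothelial RNA in unequal amounts. In bulk samples such as these, more cells of a type and more RNA per cell cannot be told apart.

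Summed over the 5 paralogs, the normalized read count was 467, 374 and 290 in Control and 5625, 5464 and 4622 in Sox9cKO. The groups do not overlap, and the lowest Sox9cKO sample was well above the highest Control sample. The means were 377 ± 88.1 and 5237 ± 539 (SD, n = 3), a ratio of 13.9. On the log2(value + 1) scale the summed family differed by 3.81 with a standard error of 0.22. Within pairs of samples with the same replicate number, the ratio was 12.1, 14.6 and 15.9. The sum does not depend on how reads were divided among the 5 copies, as long as they were counted at all.

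Each paralog was also higher in all Sox9cKO samples than in any Control sample, which held for 13.4% of the 17153 genes tested. Since this contrast was used to choose the members, nothing is read from that count.

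Serpina1b was the paralog with the largest ratio. Its normalized read counts were 53.0, 33.4 and 42.6 in Control and 2197, 2081 and 1806 in Sox9cKO. Samples within a group lay close together, and the group means of 43.0 ± 9.78 and 2028 ± 201 (SD, n = 3) differed 47.2-fold. Serpina1c was the most abundant copy in Control, at 327, 159 and 149, and reached 1916, 1901 and 1588 in Sox9cKO. Control replicate 1 stood above the other Control samples here. The ratio of its means, 211 ± 100.2 and 1802 ± 185 (SD, n = 3), was 8.52.

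Serpina1e varied most among the Control samples. It had 21.9, 147 and 61.1 normalized reads in Control, a 6.71-fold range, and 878, 993 and 757 in Sox9cKO, a 1.31-fold range. Control replicate 1, which had the highest level of the other 4 copies, had the lowest of this one. The means were 76.5 ± 63.8 and 876 ± 118 (SD, n = 3), a ratio of 11.5, but the ratio within pairs of the same number ran from 6.77 to 40.2.

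Serpina1a and Serpina1d were the least abundant copies in both groups. Serpina1a had 30.3, 15.8 and 10.4 normalized reads in Control, from as few as 9 reads, and 433, 289 and 301 in Sox9cKO, with a ratio of means of 18.1. Serpina1d had 34.5, 19.5 and 27.7 in Control and 201, 199 and 170 in Sox9cKO, with a ratio of 6.99, the smallest of the family. On the log2(value + 1) scale the differences were 5.55 for Serpina1b (standard error 0.21), 4.21 for Serpina1a (0.46), 3.88 for Serpina1e (0.79), 3.18 for Serpina1c (0.37) and 2.79 for Serpina1d (0.24). The place of Serpina1e in this order rests on single Control samples: its difference was 3.19 without Control replicate 1, when that of Serpina1c was 3.54, and 4.53 without Control replicate 2, when that of Serpina1a was 4.16.

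**Figure D2:**
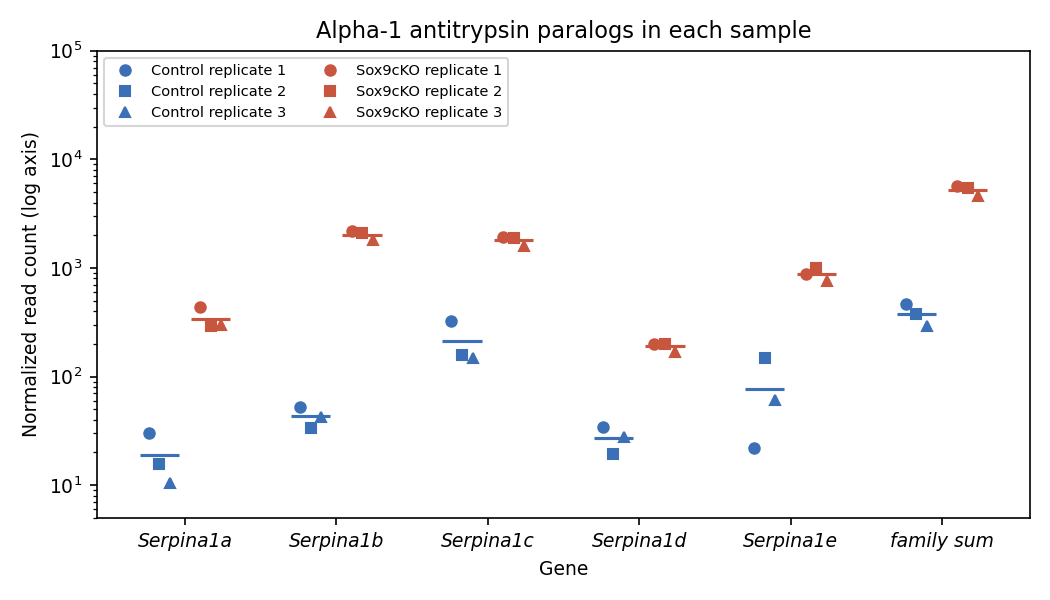
Normalized read counts (y axis, log scale) of each paralog and of the summed family in 3 Control (blue) and 3 Sox9cKO (red) samples, with symbols for the replicate number and a line at each group mean. Every red point lies above every blue point of the same gene, and Serpina1e spans the widest Control range, from 21.9 to 147.

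Compared per kilobase of transcript, the copies fell in a different order in the 2 groups. In Control, normalized reads per kilobase were 155 ± 73.6 for Serpina1c, 59.1 ± 49.3 for Serpina1e, 30.8 ± 7.01 for Serpina1b, 19.5 ± 5.38 for Serpina1d and 13.8 ± 7.56 for Serpina1a (SD, n = 3), and the ranges of all neighbours in that order overlap. In Sox9cKO the values were 1455 ± 144 for Serpina1b, 1324 ± 136 for Serpina1c, 677 ± 91.1 for Serpina1e, 251 ± 58.6 for Serpina1a and 136 ± 12.6 for Serpina1d. There the ranges of Serpina1b and Serpina1c overlap and those of the other neighbours do not. Within each Sox9cKO sample Serpina1b was above Serpina1c (1576 and 1408, 1493 and 1397, 1295 and 1167). These values divide by the whole transcript length, although the copies differ in how much of it can be assigned. Of stretches of 100 bases, 73.6% were found in no other gene for Serpina1b and 41.5% for Serpina1c. How reads shared by copies were counted is not given, and any effect of it would recur in every sample. Its part in the order of the copies was not tested.

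The makeup of the family differed accordingly. Serpina1b made up 11.4%, 8.93% and 14.7% of the summed family in Control, and 39.1%, 38.1% and 39.1% in Sox9cKO. Serpina1c made up 70.1%, 42.4% and 51.2% in Control and 34.1%, 34.8% and 34.4% in Sox9cKO. The share of Serpina1e was 4.68%, 39.2% and 21.0% in Control and between 15.6% and 18.2% in Sox9cKO, so its Control values lie on both sides. Serpina1d had shares of 5.21% to 9.52% in Control and 3.57% to 3.67% in Sox9cKO, while the shares of Serpina1a overlapped (3.57% to 6.49% and 5.29% to 7.69%). The 3 Sox9cKO samples had nearly 1 makeup, with a standard deviation of at most 1.31 percentage points for any copy, against up to 17.3 (Serpina1e) in Control. The Control shares rest on only 555, 403 and 252 reads of the family, and the Sox9cKO shares on 5654, 5782 and 4083. The part of counting in the wider Control spread was not tested.

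**Figure D3:**
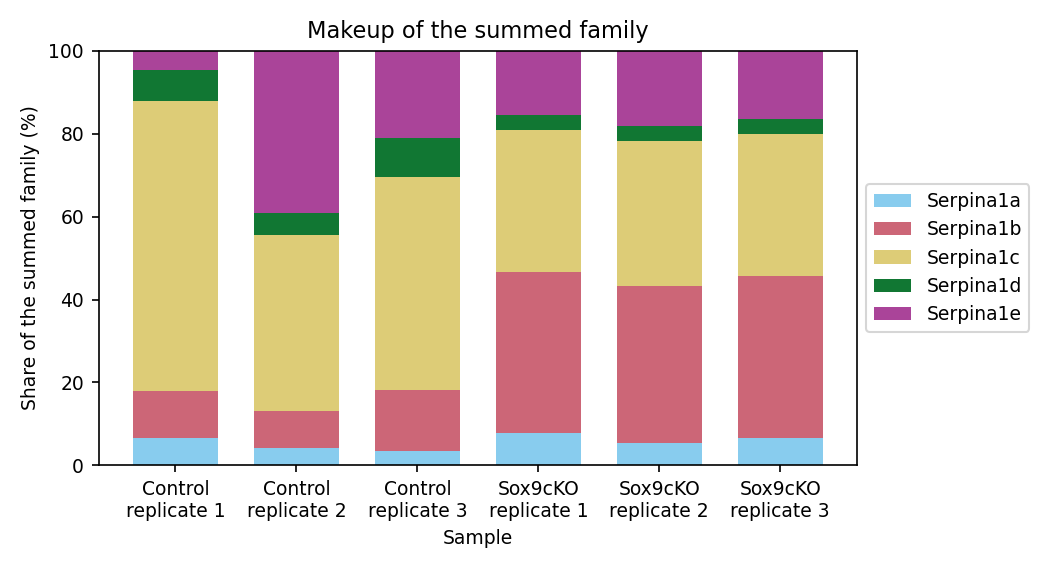
Share of each paralog in the summed family (y axis, %) for each of the 6 samples (x axis). The Sox9cKO bars look alike, with Serpina1b between 38.1% and 39.1%, whereas the Control bars differ, with Serpina1c between 42.4% and 70.1%.

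These shares rest on how the authors' counting divided near-identical reads. Serpina1a and Serpina1c, the pair with most shared sequence, had unlike ratios of 18.1 and 8.52. Serpina1b and Serpina1d, whose annotated ranges overlap, had ratios of 47.2 and 6.99. Gm8893, the pseudogene among them (chosen after its values were seen), had 1.68, 2.78 and 0 normalized reads in Control and 40.8, 18.9 and 26.0 in Sox9cKO. Whether its reads came from the paralogs was not tested, and adding them to the sum left the log2 difference at 3.82. The strain of the mice, and with it the number of copies they carry, is not given in the labels, and its part in these shares was not tested.

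The next question was whether hepatocyte RNA, rich in alpha-1 antitrypsin, moved with the family. All 19 hepatocyte markers were in the table and none was at 0 in any sample. Their summed level was 19987 to 31576 in Control and 24231 to 39238 in Sox9cKO. These ranges overlap, but the sum was higher in Sox9cKO in each of the 3 pairs of the same replicate number (31576 and 37366, 19987 and 24231, 21683 and 39238). Without Alb it was 2603 to 3894 and 2832 to 5219. Albumin (Alb), the main plasma protein, had 27683, 17384 and 18944 normalized reads in Control and 32147, 21399 and 35363 in Sox9cKO, also higher in each of the 3 pairs. The summed family was 1.69%, 2.15% and 1.53% of the Alb level in the Control samples and 17.5%, 25.5% and 13.1% in the Sox9cKO samples. Transthyretin (Ttr) went from 1367 ± 413 to 1051 ± 482 and apolipoprotein A-I (Apoa1) from 109 ± 10.4 to 150 ± 75.4 (SD, n = 3), both with overlapping groups; Ttr was lower in Sox9cKO in each of the 3 pairs.

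Of the 19 hepatocyte markers, 2 were called higher and none lower with limma (Benjamini-Hochberg adjusted p under 0.05), where 2.03% and 0.939% of all tested genes were called in these directions. All gene lists used here were chosen with earlier results of these data known, so such counts beside these shares are a description only. The median log2 difference of the hepatocyte list was 0.35, against 0.036 over all tested genes. Tat, a tyrosine-degrading enzyme, rose from 91.9 ± 28.7 to 437 ± 95.6 (log2 difference 2.26, limma adjusted p 0.00726). Tdo2, which degrades tryptophan, rose from 13.2 ± 4.02 to 45.9 ± 1.92 (1.76, limma adjusted p 0.0321), a call that no fit without 1 of the 6 samples kept (adjusted p up to 0.117). The summed leukocyte and Kupffer cell markers (9 of 12 in the table) were 1103 to 1334 in Control and 1576 to 1859 in Sox9cKO, ranges that do not overlap, but most of this sum was Csf1r, the only 1 of the 8 tested markers with a positive difference (median of the list -0.75). Without Csf1r, left out after the values were seen, the sum was 446, 628 and 305 in Control and 310, 266 and 221 in Sox9cKO. The summed mesenchymal markers (7 of 7) were 1966 to 2498 and 1999 to 3720. The part of RNA from hepatocytes or other cells in the levels of the family was not tested.

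The genes next to the family in the serpin cluster divide in their behaviour. Of 18 listed clade A serpins outside the family, 14 were in the table and 9 could be tested, and of these 2 were called higher and none lower with limma, which called 2.03% of all tested genes higher. Both lie on the side of Serpina1b. Serpina6, which encodes corticosteroid-binding globulin, had 14.3, 12.99 and 8.06 normalized reads in Control and 560, 167 and 288 in Sox9cKO (log2 difference 4.59, limma adjusted p 0.00445). Serpina10, the inhibitor of coagulation factor Xa that acts with protein Z, had 88.3, 28.8 and 44.9 in Control and 272, 201 and 271 in Sox9cKO (2.31, limma adjusted p 0.0272). The Serpina10 call was lost without Control replicate 3 or without any 1 of the Sox9cKO samples (adjusted p up to 0.102).

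On the other side, Serpina11 had at most 1.15 normalized reads in Control and 7.56 to 11.3 in Sox9cKO, too few to test. The Serpina3 copies further along, among them the antichymotrypsin-like Serpina3n, showed no call. Serpina3n had 13.9 ± 11.6 and 13.1 ± 7.57 normalized reads in Control and Sox9cKO (SD, n = 3; limma adjusted p 0.957). Serpina3f, named after its values were seen, had 443, 1633 and 79.5 in Control and 1127, 1141 and 224 in Sox9cKO, low in both samples numbered 3 like the endothelial gene Pecam1 (841, 3057 and 253 in Control and 1870, 2654 and 489 in Sox9cKO).

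**Figure D4:**
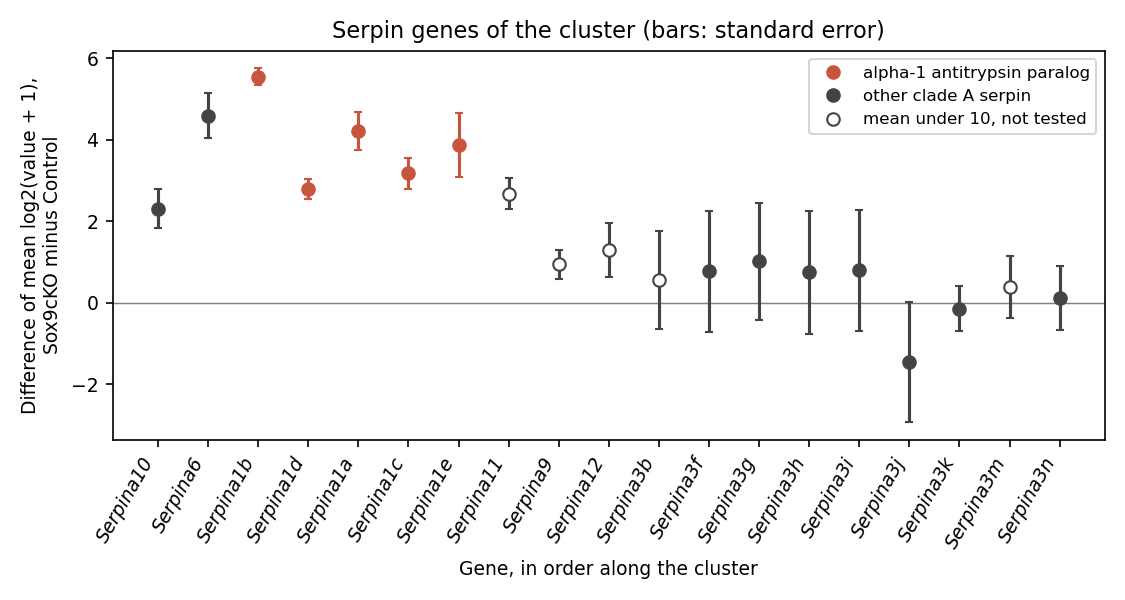
Difference of mean log2(value + 1), Sox9cKO minus Control (y axis), for the clade A serpins in the table in their order along the cluster (x axis), with standard errors from 3 samples per group; open points had a mean under 10 normalized reads. The 5 paralogs (red) lie between 2.79 and 5.55, Serpina6 and Serpina10 at 4.59 and 2.31, and Serpina3n at 0.11.

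The 20 genes listed as other plasma protease inhibitors include serpins without inhibitory action, such as Serpinf1. Of these 20 genes, 19 were tested, and limma called 9 higher and none lower. It called 2.03% of all tested genes higher and 0.939% lower. This list was chosen with earlier results of these data known, so its count beside these shares is a description only. When 1 sample was left out limma called 6 to 8 higher, in fits that called 200 to 389 genes in all. The list's median log2 difference was 1.46, against 0.036 over all tested genes. The replicate block, a fit with the replicate number as a term, called 13 higher, against 8.05% of all tested genes called by it in either direction. Pzp, an alpha-2-macroglobulin type inhibitor that traps proteases in a cage, rose from 878 ± 142 to 8244 ± 1531 (SD, n = 3; log2 difference 3.23, limma adjusted p 0.00114). Itih4 and Itih2, inter-alpha-trypsin inhibitor heavy chains, rose from 101 ± 17.8 to 979 ± 401 (3.19, limma adjusted p 0.00445) and from 2287 ± 489 to 6883 ± 1013 (1.60, limma adjusted p 0.00649).

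Serpinf1, which encodes pigment epithelium-derived factor, a serpin without inhibitory action, rose from 16.3 ± 6.14 to 130 ± 14.7 (log2 difference 2.99, limma adjusted p 0.00611). Kng2, a kininogen, the precursor of bradykinin and an inhibitor of cysteine proteases, rose from 16.4 ± 8.16 to 212 ± 71.2 (3.67, limma adjusted p 0.00745). Among the genes outside the naming rule, named after their values were seen, Serpind1 (heparin cofactor II), Serpina7 (thyroxine-binding globulin), Serping1 (C1 inhibitor) and Serpinf2 (alpha-2-antiplasmin) were called too, and the last 3 of these kept the call in 3, 1 and 2 of the 6 fits without 1 sample. Serpinc1 (antithrombin) had 150, 154 and 156 normalized reads in Control and 100, 96.4 and 145 in Sox9cKO (log2 difference -0.45, limma adjusted p 0.313). Not every gene of the list therefore rose.

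**Figure D5:**
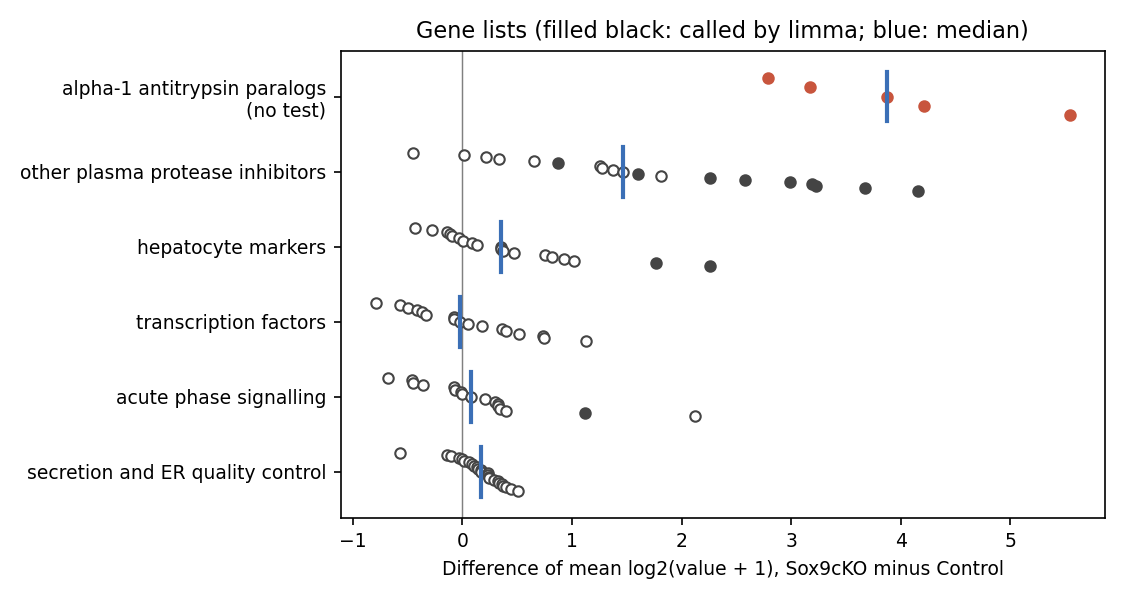
Difference of mean log2(value + 1), Sox9cKO minus Control (x axis), for each tested gene of 6 lists (y axis); filled black points were called by limma, blue bars are medians, and the 5 paralogs (red) carry no test. The inhibitor list has a median of 1.46 and the hepatocyte markers 0.35, while the lists of transcription factors, acute phase signalling and secretion have medians between -0.03 and 0.17. The lists were chosen with earlier results of these data known.

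Transcription factors known to act on liver promoters such as those of the family showed smaller differences. Of 17 tested, limma and edgeR called none, where edgeR called 3.00% of all tested genes. DESeq2 called 2, where it called 7.08% of all tested genes. An unadjusted limma p under 0.05 was found for 4. The share of all tested genes under that p is not given here, so nothing is read from this count or from those below. Hnf4a, a nuclear receptor of hepatocyte genes, had 5329, 3802 and 6320 normalized reads in Control and 10056, 6994 and 8629 in Sox9cKO (log2 difference 0.75, limma adjusted p 0.131, block adjusted p 0.0170). The Hnf4a groups do not overlap. Onecut2 was also called higher with the block. Foxa2, Cebpa and Cebpb, which encode liver pioneer and acute phase factors, had log2 differences of 0.36, -0.08 and 0.18 (limma adjusted p 0.602, 0.873 and 0.675).

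Among 17 tested genes of interleukin-6 type signalling, which drives the acute phase response, limma called 1 higher and none lower, near its share of 2.03% higher among all tested genes. The block called 2 higher and 2 lower, where it called 8.05% of all tested genes in either direction. Il6ra, the interleukin-6 receptor, had 111, 114 and 132 normalized reads in Control and 209, 298 and 281 in Sox9cKO (log2 difference 1.12, limma adjusted p 0.0275). That call was lost with quantile normalization (adjusted p 0.0591) and in every fit that left out 1 sample except the one without Sox9cKO replicate 1 (adjusted p up to 0.127). Stat3, the factor that carries the signal to the nucleus, had 8570 ± 986 in Control and 6299 ± 1183 in Sox9cKO (-0.46, limma adjusted p 0.218, block adjusted p 0.0432). The shared receptor chain Il6st and the feedback inhibitor Socs3 had log2 differences of 0.32 and 0.33 (limma adjusted p 0.269 and 0.831). Il6, the cytokine itself, had 10.9, 16.7 and 2.30 in Control and 57.7, 45.4 and 20.4 in Sox9cKO (log2 difference 2.13, limma adjusted p 0.171, block adjusted p 0.0231).

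Of 25 tested genes of the secretory pathway, which folds, exports or discards alpha-1 antitrypsin, limma and edgeR called none. DESeq2 called 3, where it called 7.08% of all tested genes. The list's median log2 difference was 0.17, against 0.036 over all tested genes. An unadjusted limma p under 0.05 was found for 8, again without a share to compare. Lman1, the cargo receptor that carries alpha-1 antitrypsin out of the endoplasmic reticulum, had 893 ± 92.7 normalized reads in Control and 1126 ± 175 in Sox9cKO (0.33, limma adjusted p 0.312). Its partner Mcfd2 had 756 ± 109 and 753 ± 73.8 (-0.001, limma adjusted p 0.998), and the cargo receptor Surf4 had 939 ± 84.4 and 1247 ± 226 (0.40, limma adjusted p 0.241). With the block, 3 genes of the degradation and chaperone machinery were called, Sel1l and Os9 higher and Dnajb9 lower.

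Of 14 listed proteases that alpha-1 antitrypsin can inhibit, 9 were in the table and 6 could be tested. None of these was called by limma, edgeR or DESeq2. An unadjusted limma p under 0.05 was found for 3, again without a share to compare. Elane, neutrophil elastase, had 7.57, 13.9 and 19.6 normalized reads in Control and 8.95, 3.78 and 3.40 in Sox9cKO, under the level needed for a test. Prtn3, the related proteinase 3, had 40.6 ± 8.98 in Control and 17.1 ± 3.23 in Sox9cKO (log2 difference -1.19, limma adjusted p 0.0984). Of 6 tested genes for uptake of serpin and protease complexes, limma and edgeR called none. DESeq2 called 1, where it called 7.08% of all tested genes. An unadjusted limma p under 0.05 was found for 3, also without such a share. Lrp1, the receptor that clears such complexes, had 4808, 4350 and 5728 in Control and 9034, 6197 and 10794 in Sox9cKO (0.78, limma adjusted p 0.119, block adjusted p 0.0123, and limma adjusted p 0.0442 without Sox9cKO replicate 2).

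Across the 17148 tested genes outside the family, those whose log2 levels followed the family sum most closely over the 6 samples were Cfi, Ces3a, Frmpd4, Psma2 and Sftpd. Their Pearson correlations were 0.998, 0.998, 0.998, 0.996 and 0.995, as a description over 6 points that share libraries and the split into groups. In all, 307 genes had a correlation with the family sum above 0.95. Cfi, the complement protease factor I, had 546, 531 and 482 normalized reads in Control and 1820, 1737 and 1738 in Sox9cKO. Ces3a, a carboxylesterase, had 24.4, 26.0 and 18.4 in Control and 402, 393 and 322 in Sox9cKO. Sftpd, which encodes surfactant protein D, a collectin of innate defence, had 309, 247 and 244 and then 1148, 1228 and 1263. Psma2, a proteasome subunit, had 399, 400 and 394 in Control and 483, 481 and 469 in Sox9cKO, a ratio of means of only 1.20, which shows that a high correlation says nothing of the size of a difference.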

How the data were processed

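Libraries were made from total RNA with ribosomal RNA depletion, a stranded kit for small inputs and unique molecular identifiers, per the labels' protocols. The values the authors deposited are a signal: gene counts scaled by 1 factor in each library. Division of each column by its smallest value above 0 gave whole reads for 100% of values (tolerance 0.001 reads). DESeq2 1.36.0 and GRCm39 are named in the submitters' processing notes. The aligner, the annotation, the read length, and the handling of molecular identifiers, strand and reads that fit several genes are not given in the sources used here.

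Genes whose mean over the samples reached 10 normalized reads were fitted as log2(value + 1) with limma 3.58.1 in R 4.3.3 (eBayes with an intensity trend, 2-sided, Benjamini-Hochberg adjustment over 17153 genes, threshold 0.05). The pseudocount understates differences of genes with few reads. The members and the 13 gene lists were chosen with earlier results of these data known. Named genes were the members, Sox9, the 5 genes most correlated with the family sum, up to 5 called genes per list, and a set of genes of the pathway and liver taken whatever their values. Besides these lists, limma called 1 of 17 biliary markers higher (Krt7, adjusted p 0.0408) and 1 lower (Sox9; 4 lower with the replicate block), 1 of 8 leukocyte markers higher (Csf1r, adjusted p 0.0142), and none of 7 endothelial and 7 mesenchymal markers, where edgeR, DESeq2 and an unadjusted p under 0.05 also gave 0.

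Same-numbered samples deviated together (correlations across genes of 0.21, 0.47 and 0.54 for numbers 1 to 3), so the replicate block is given where it changes a call. Alternatives used edgeR 4.0.16 and DESeq2 1.42.0 on the whole reads, other pseudocounts, filters and scalings, and fits without each sample. Coding sequences (GENCODE M21) were aligned with MAFFT 7.526. The scripts were tested on simulated data. Results for some genes of the lists are not reported here.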

Additional observations from a re-analysis of the deposited data

How the results depend on the processing

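The log2 difference of the summed family stayed between 3.64 and 3.98 when 1 sample was left out and between 3.73 and 3.82 with pseudocounts of 0.1 and 5, TMM factors and quantile normalization. Leaving Serpina1b out of the sum gave 3.29 and leaving Serpina1c out gave 4.39. Adding Gm8893, an alternative chosen after the data were examined, gave 3.82. limma called 510 genes, the replicate block 1381 with all 510 among them, edgeR 515 and DESeq2 1214, and 200 to 389 were called when 1 sample was left out, the fewest without Control replicate 1 (200) and Control replicate 3 (210), and 280 and 337 without Sox9cKO replicates 3 and 2. The cause of these changes was not tested. The replicate block added the calls of Hnf4a, Onecut2, Stat3, Il6, Lrp1, Sel1l, Os9 and Dnajb9 given above and changed no other call of a gene named here. Some named genes that were not called changed sign. Without 1 sample, Apoa1 ranged from -0.033 to 0.54, Cebpa from -0.28 to 0.082, Socs3 from -0.14 to 0.93, Mcfd2 from -0.12 to 0.078 and Serpina3n from -0.44 to 0.72. Mcfd2 was 0.0054 with TMM factors, and Serpina3n -0.081 with edgeR and -0.13 with DESeq2. Krt7 and Csf1r lost their calls in 5 and 3 of the 6 fits without 1 sample. Depth limits the Control values of Serpina1a and Serpina1d, which rest on 9 to 41 reads. It also limits those of Serpina1b (36 to 63 reads) and that of Serpina1e in Control replicate 1 (26 reads).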
